A study of Homo sapiens with 8 samples.

Results

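The regions described here are the broad open chromatin regions of the EZH2 WT line, that is, the WT peaks on chromosomes 1 to 22 that were at least 2000 bp wide in WT replicate 1 and overlapped a peak of at least 2000 bp in WT replicate 2. Of the 62739 WT replicate 1 peaks on these chromosomes, 1013 reached this width and 616 were members. Of the others, 394 lay over a narrower WT replicate 2 peak and 3 lay over none. WT replicate 2 held 963 peaks of that width. The members were selected on their width in the WT libraries, so that the WT values and any difference between WT and mutants over these regions are given as a description without a test. The 46600 other WT replicate 1 peaks that overlapped a WT replicate 2 peak served as the comparison set, and both sets together made 47216 reproducible WT regions.

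ATAC-seq, in which the transposase Tn5 cuts accessible DNA and the resulting fragments are sequenced, was carried out in 8 libraries of HEK293T, an established human embryonic kidney cell line. Each of 4 stable lines was represented by 2 biological replicates. The lines received EZH2 by lentivirus, either WT or with the substitutions Y641F, A677G or H689A/F667I, and were selected with blasticidin, so the WT control also carried an introduced EZH2, and all lines kept the EZH2 of the host cells. The methods call the selected populations monoclonal, so that a line may come from 1 clone and line and mutation cannot be told apart. Y641F and A677G are the gain-of-function (GOF) mutants of the study and H689A/F667I is its loss-of-function (LOF) mutant.

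EZH2 is the catalytic subunit of Polycomb repressive complex 2 (PRC2), which methylates lysine 27 of histone H3, and its trimethylated form marks repressed promoters of developmental genes. PRC2 is known to act at CpG islands, the CpG-rich stretches over which most promoters of housekeeping and developmental genes lie. An open region at such a promoter usually contains the nucleosome-depleted start of the gene, and wide open regions extend over the flanking nucleosomes and nearby regulatory elements.

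The bases just upstream of the gene start are shown for 4 members, 2 of the widest and 2 of those with the largest difference between LOF and GOF libraries, to show the CpG-rich sequence beside the start in members that differ in whether it was covered. The sequences run 5′ to 3′ on the strand of the gene and were taken from RefSeq (GRCh38.p14), with each CpG in capitals.
ALCAM (chr3:105366659-105366908, plus strand): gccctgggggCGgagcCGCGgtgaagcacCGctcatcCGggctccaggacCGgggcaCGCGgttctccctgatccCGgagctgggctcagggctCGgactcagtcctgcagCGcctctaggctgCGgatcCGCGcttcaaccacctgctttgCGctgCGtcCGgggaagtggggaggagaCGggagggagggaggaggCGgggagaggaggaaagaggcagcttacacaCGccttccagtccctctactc
ZNF398 (chr7:149147203-149147452, plus strand): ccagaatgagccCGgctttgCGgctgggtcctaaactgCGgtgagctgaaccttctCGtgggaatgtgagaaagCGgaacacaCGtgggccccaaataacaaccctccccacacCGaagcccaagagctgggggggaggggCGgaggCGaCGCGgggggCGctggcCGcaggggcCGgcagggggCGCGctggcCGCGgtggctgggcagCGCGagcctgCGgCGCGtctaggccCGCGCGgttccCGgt
HELZ (chr17:67245197-67245446, minus strand): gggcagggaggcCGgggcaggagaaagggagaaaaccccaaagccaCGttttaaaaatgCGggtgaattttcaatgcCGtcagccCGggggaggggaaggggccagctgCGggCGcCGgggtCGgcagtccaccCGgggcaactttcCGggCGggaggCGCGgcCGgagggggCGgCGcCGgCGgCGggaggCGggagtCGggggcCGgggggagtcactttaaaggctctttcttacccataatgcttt
UCKL1 (chr20:63956417-63956666, minus strand): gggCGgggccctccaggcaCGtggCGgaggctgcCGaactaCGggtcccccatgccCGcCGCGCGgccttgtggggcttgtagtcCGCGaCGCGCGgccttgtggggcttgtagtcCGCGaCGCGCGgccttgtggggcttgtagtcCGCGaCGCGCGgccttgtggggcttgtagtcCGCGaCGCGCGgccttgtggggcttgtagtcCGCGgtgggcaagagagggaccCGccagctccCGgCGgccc
These 250-base stretches held 20, 27, 23 and 34 CpG, in the order given. The stretches of HELZ and UCKL1 overlap exons of the antisense lncRNA genes HELZ-AS1 and UCKL1-AS1.

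The ALCAM stretch was under a peak over its whole length in each of the 8 libraries. The ZNF398 stretch was covered completely in both A677G and both H689A/F667I libraries, and not at all in either Y641F library. The HELZ stretch was covered completely in both H689A/F667I libraries, to 58.8% in A677G replicate 1, and not at all in A677G replicate 2 or in either Y641F library. At UCKL1 it was covered to 52.0% in Y641F replicate 1, to 88.4% in Y641F replicate 2 and completely in the other libraries.

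The libraries differed in the number of peaks called. Read depth was not stated, and the number of peaks can follow depth or accessibility, so it is not a measure of depth. WT held 62739 and 60420 peaks, Y641F 25423 and 35380, A677G 36744 and 44754, and H689A/F667I 46317 and 47164. Of 11 markers of HEK293T, 6 had an open gene start in all libraries, among them PAX2, WT1 and NEFM, and LHX1 had one in none. Of 11 defining markers of other cell types, 10 were open in no library and HBB was open in A677G replicate 2 only. Y641F replicate 1 had the fewest peaks, and the differences between GOF and LOF libraries are also given without it.

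Broad WT regions were mostly promoters. Of the 616 members, 526 (85.4%) contained the start of a protein-coding gene, against 24.6% of the other reproducible WT regions. A further 28 held only the start of a lncRNA gene, 14 lay in exons, 24 in introns and 24 in intergenic sequence. Starts of at least 2 protein-coding genes were present in 77 members (12.5%, against 2.72% of the other regions), and 65 of the members held protein-coding starts on both strands. Both a protein-coding and a lncRNA start were found in 186 members (30.2%, against 4.58%). The members together held the starts of 605 of 19103 protein-coding genes. These counts are given without a test, and a wider window has more room for a start: among all WT replicate 1 peaks with a partner, the share with a protein-coding start was 3.21% below 500 bp, 59.1% from 1000 to under 1500 bp, 76.4% from 1500 to under 2000 bp and 86.2% from 2500 bp.

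Most members were rich in CpG, measured as 1 density over the full width of each. Their median CpG density was 7.26 per 100 bp, against 2.02 in the other regions, and the median ratio of observed to expected CpG was 0.770 against 0.324. The median GC content was 62.0% against 52.7%. Among peaks of 1500 to under 2000 bp, just below the threshold, the median CpG density was 7.22 per 100 bp, so the members resembled the next narrower peaks in this respect. In the 250 bases upstream of 827 RefSeq gene starts in members, the median CpG density was 9.20 per 100 bp, close to the 8.80 of 14813 starts in the other regions and above the 4.40 of all 33725 starts. The GC box (GGGCGG or its reverse complement CCGCCC) occurred in 73.2% of those stretches in members, in 69.1% in the other regions and in 42.7% of all. The CCAAT box (CCAAT or ATTGG) occurred in 29.6%, 33.2% and 31.8%, and the TATA box (TATAAA or TTTATA) in 6.29%, 4.51% and 10.7%, in the same order.

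Peaks of at least 2 kb were fewer in both GOF lines. WT held 1013 and 963 of them, H689A/F667I 408 and 443, A677G 195 and 226, and Y641F 92 and 234. Every GOF library was below every WT and LOF library. The difference of log2 number between the 4 GOF and the 4 WT and LOF libraries was -1.88. As a share of all peaks of a library, peaks of 2 kb or more made up 1.61% and 1.59% in WT, 0.881% and 0.939% in H689A/F667I, 0.531% and 0.505% in A677G, and 0.362% and 0.661% in Y641F. This share differed by -0.742 percentage points between GOF and the others. When each library was reduced to its 25423 most significant peaks, the difference of log2 number was -1.61. Since the width of the WT peaks chose the members, these differences are a description without a test.

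**Figure D1:**
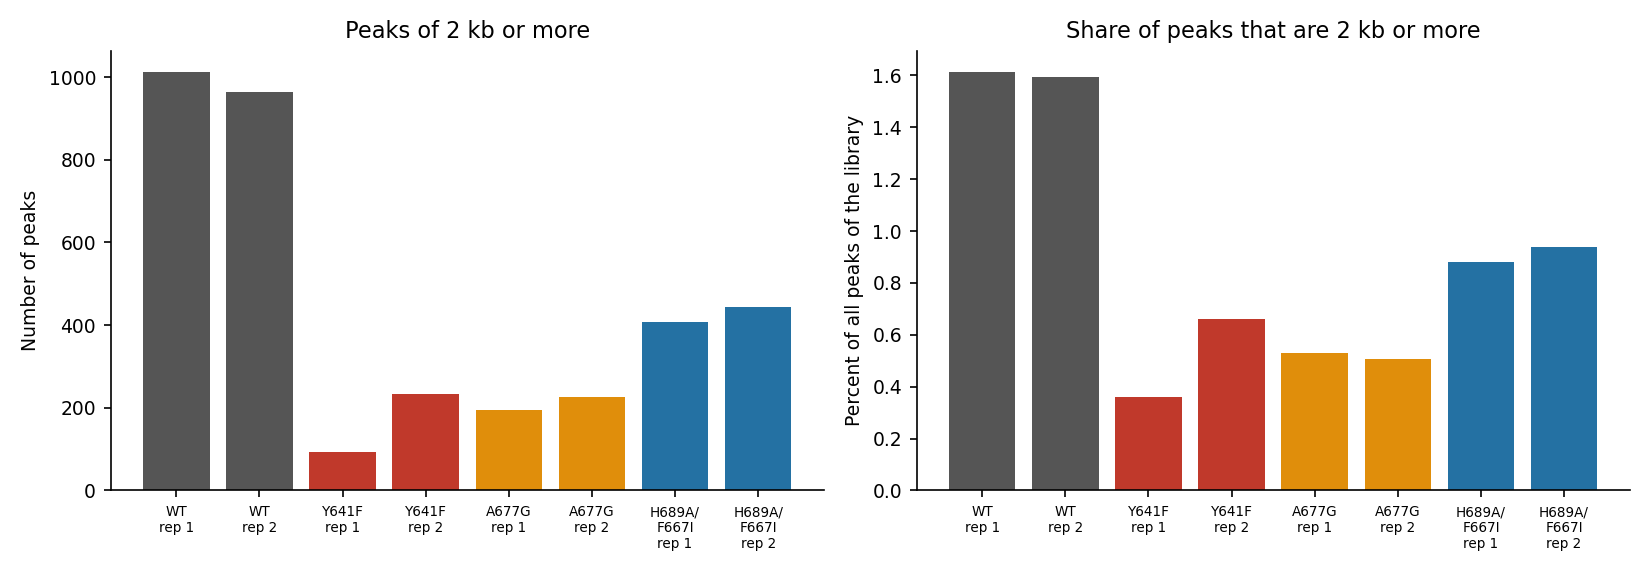
Number of peaks of 2 kb or more (left) and their share of all peaks of the library in percent (right) on chromosomes 1 to 22, with 1 bar per library. WT bars stand at 1013 and 963, H689A/F667I bars at 408 and 443, and all 4 GOF bars at or below 234.

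Nearly all members had a peak in every mutant library, but over a smaller part of their length. The covered share, the percentage of a member's bases under peaks of a library, averaged 51.8% and 66.7% in Y641F, 65.8% and 69.1% in A677G, compared with 77.0% and 78.3% in H689A/F667I. In WT replicate 2, which took part in choosing the members, it was 96.3%. All 4 GOF libraries lay below both LOF libraries, with a mean of 63.4% ± 7.79 (SD, n = 4) against 77.7% ± 0.936 (SD, n = 2). The difference of -14.3 percentage points could not pass 0.05 in this design (exact permutation p = 0.133, the smallest possible, 0.167 after Benjamini-Hochberg adjustment over 5 tests). Without Y641F replicate 1 it was -10.5 points. Y641F and A677G differed by -8.15 points (exact permutation p = 0.667, smallest possible 0.333), and the Y641F replicates, at 51.8% and 66.7%, lay further apart than that. Without Y641F replicate 1 the difference between both lines was -0.714 points.

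The number of peaks in a library moved with this cover. With 25423 peaks per library, the mean cover was 51.8% and 61.0% in Y641F, 59.8% and 59.3% in A677G, 65.0% and 65.9% in H689A/F667I, and 81.0% and 77.4% in WT, and the difference between GOF and LOF was -7.43 points. A677G replicate 2 and H689A/F667I replicate 1 had 44754 and 46317 peaks and covered 69.1% and 77.0% of the members. A677G replicate 1 and Y641F replicate 2 had 36744 and 35380 peaks and covered 65.8% and 66.7%. The replicate libraries of a line differed by a median of 15.05 points per member in Y641F, 9.65 in A677G, and 8.25 in the LOF line.

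**Figure D2:**
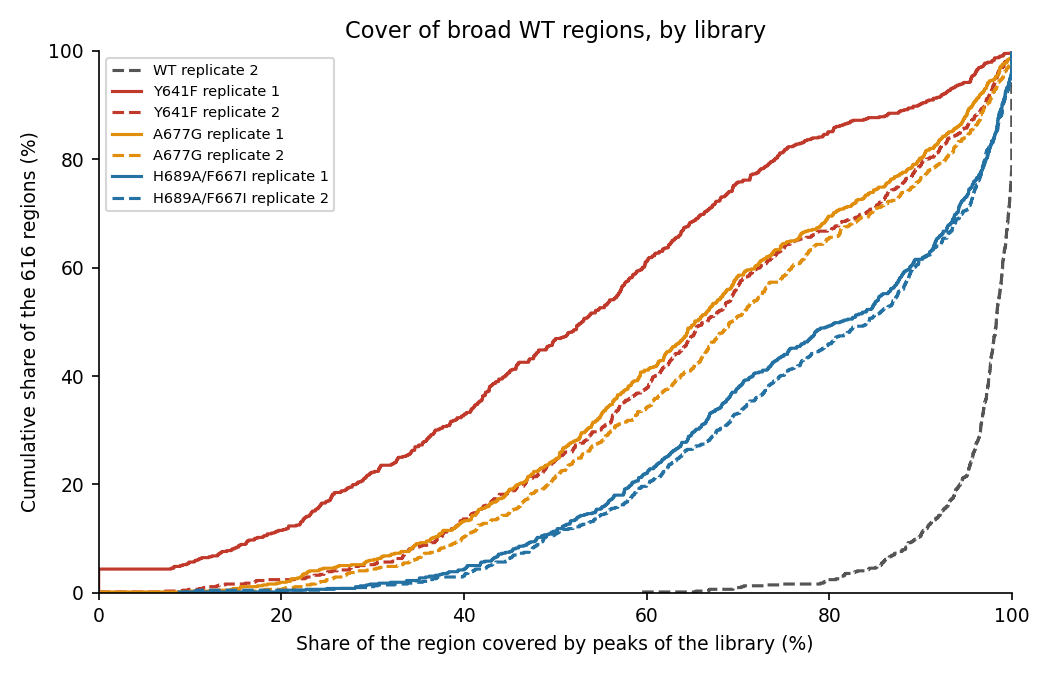
Cumulative share of the 616 broad WT regions (vertical axis, %) by the percentage of the region covered by peaks of a library (horizontal axis), with 1 line per library and replicate 2 dashed. WT replicate 1 is left out because it is 100% by definition. The median cover rises from 53.0% in Y641F replicate 1 to 84.3% in H689A/F667I replicate 2.

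No member lacked a peak in both libraries of any mutant. Over all reproducible WT regions the share without a peak in both libraries was 35.6% in Y641F, 21.1% in A677G, and 14.4% in the LOF line. Single libraries lacked a peak in 27 members in Y641F replicate 1, in 1 in Y641F replicate 2, in 1 in A677G replicate 1 and in none in the remaining mutant libraries. At the other end, a cover of at least 90% in both libraries was kept by 40 members (6.49%) in Y641F, 75 (12.2%) in A677G, and 152 (24.7%) in the LOF line. The background over all reproducible WT regions was 2.68%, 7.2% and 12.9%. In each of the 6 mutant libraries the members were covered more completely than the other regions, by 16.6 to 24.98 percentage points, with a mean of 21.6 (two-sided exact sign-flip permutation test over libraries, p = 0.0312, the smallest possible, adjusted p = 0.156, which did not pass 0.05). With peaks of −log10 q of at least 5 the mean was 13.7 points. In WT replicate 2, which took part in choosing the members, the difference was 14.5 points. Choosing members by width favours this sign, so the test cannot show a trait of these regions. The other regions are mostly narrow, and WT peaks of 1500 to under 2000 bp were covered to a mean of 59.9% in GOF and 72.9% in LOF libraries, compared with 58.5% and 71.9% at 2000 to under 2500 bp and 54.9% and 70.7% from 2500 bp. The higher cover was thus not particular to the broad regions.

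In the mutants, many members were divided into several peaks. In both WT libraries a member was 1 peak, except for 2 members in WT replicate 2. Members held 2 or more peaks in 26.1% and 28.7% of cases in Y641F, 26.9% and 34.7% in A677G, against 19.3% and 18.7% in H689A/F667I. Covered members held on average 1.31 peaks ± 0.0424 (SD, n = 4) in GOF and 1.19 ± 0.00344 (SD, n = 2) in LOF libraries. The difference of 0.115 could not pass 0.05 (exact permutation p = 0.133, the smallest possible, adjusted p = 0.167). It was 0.122 without Y641F replicate 1, and 0.0157 with peaks of −log10 q of at least 5, where the groups overlapped (exact permutation p = 0.533). The same member was divided in both libraries of a line in 94 cases (15.3%) in Y641F, 114 (18.5%) in A677G, and 62 (10.1%) in the LOF line. The background was 0.373%, 0.631% and 0.392%, but it consists mostly of narrow regions, which have little room for 2 peaks. The gaps between the peaks of a divided member were long, with a median of 622 to 752 bp per mutant library and a shortest gap of 442 bp. Joining peaks less than 200 bp apart therefore changed no value.

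**Figure D3:**
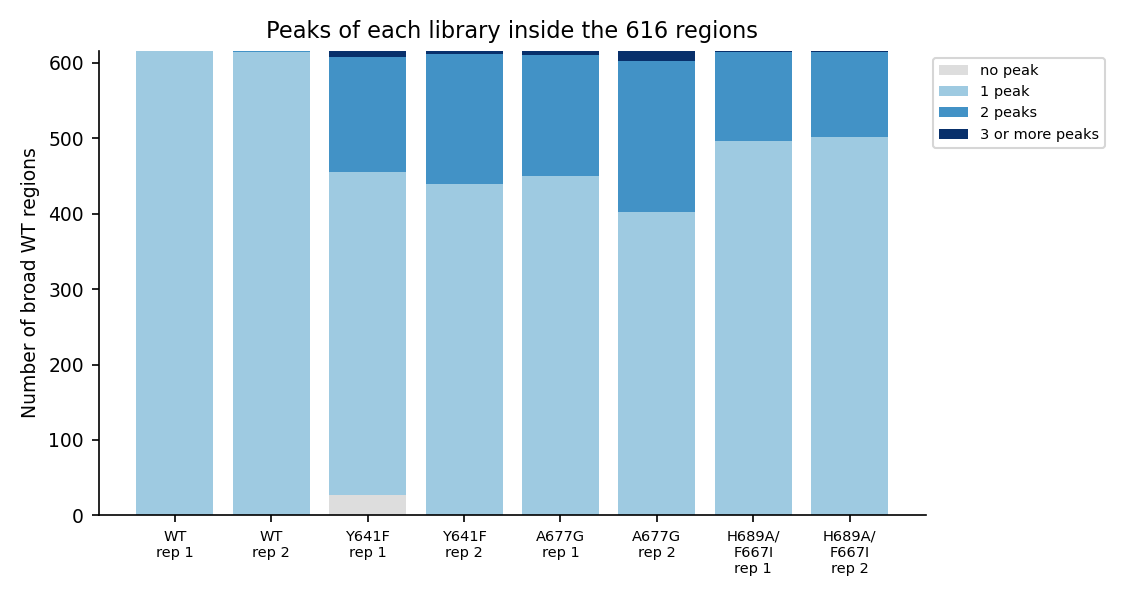
Number of broad WT regions (vertical axis) that held no peak, 1 peak, 2 peaks or 3 or more peaks of each library, stacked to 616 per library. Regions with 2 or more peaks number 119 and 115 in H689A/F667I and between 161 and 214 in the 4 GOF libraries.

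Members combined a low fold with a low p-value. The median best fold, which MACS2 gives as the pileup over the local background, averaged across a peak, was 3.21 and 3.25 in WT, 3.42 and 3.39 in Y641F, 3.48 and 3.42 in A677G, compared with 3.40 and 3.39 in H689A/F667I. Single members ranged from 2.05 to 6.69 in the mutant libraries. In every library the members' median lay below the median of all peaks, which was 3.64 to 3.78. Within its library, the best fold of a member stood at a median percentile of 27.8 and 26.7 in WT, 35.3 and 35.0 in Y641F, 35.1 and 39.4 in A677G, against 33.0 in both H689A/F667I libraries. The difference between GOF and LOF was 3.20 percentile points (exact permutation p = 0.133, the smallest possible, adjusted p = 0.167). It was 3.50 without Y641F replicate 1, 2.12 without A677G replicate 2 and 10.05 with equal peak numbers. In that last setting Y641F replicate 1, which kept all its peaks, stood at 35.3. The other GOF libraries stood at 15.1 to 16.4 and both LOF libraries at 10.7, so 1 library carried much of the 10.05. The median best −log10 p was 9.31 and 9.10 in WT, 6.84 and 7.48 in Y641F, 7.29 and 8.02 in A677G, compared with 7.70 and 8.14 in H689A/F667I, and thus above the 5.76 to 6.05 of all peaks in each library. Broad regions were open at a modest enrichment over a long distance, and both scores are means over a peak whose width differed between libraries.

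Within a member, the mutant peaks were found more often in the middle than at the edges. The middle 50% of a member was covered to 57.4% and 71.5% in Y641F, 71.4% and 72.7% in A677G, against 81.7% and 83.7% in H689A/F667I. The outer parts were covered to 46.3% and 61.9%, 60.2% and 65.4%, and 72.4% and 73.0%. The middle exceeded the outer parts in all 6 mutant libraries, by 7.36 to 11.3 percentage points with a mean of 9.87. The edges of a member are those of its WT replicate 1 peak, so that another library covers the middle more by construction, and WT replicate 2 covered the middle to 99.8% and the outer parts to 92.9%, a difference of 6.92 points. No test is therefore given. This mutant difference was 1.51 points over the 30 members of 3000 bp or more. The bases that stayed under a peak were also richer in CpG. Covered bases of the members held 7.38 to 7.78 CpG per 100 bp in the mutant libraries and uncovered bases 5.61 to 6.31. The difference was positive in all 6 libraries, with a mean of 1.54 and a range of 1.33 to 1.86. In WT replicate 2 it was larger, at 2.74, and with peaks of −log10 q of at least 5 the mutant mean was 0.475. It is given without a test for the same reason.

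Seen from the gene start, the mutant peaks covered a smaller share of the gene side than of the upstream side. For 417 members that held the start of exactly 1 protein-coding gene, with its canonical start inside, the WT replicate 1 peak reached a median of 869 bp upstream and 1479 bp downstream of the start, and in 283 of them the longer arm was downstream. The start itself was under a peak in 73.4% and 87.3% of these members in Y641F, 89.4% and 92.8% in A677G, compared with 92.3% and 95.7% in H689A/F667I. The upstream arm was covered to 61.0% and 73.5% in Y641F, 73.9% and 77.2% in A677G, against 83.7% and 82.1% in H689A/F667I. The downstream arm was covered to 44.5% and 61.3%, 58.9% and 61.4%, and 69.8% and 74.7%. It was the lower value in each of the 6 mutant libraries, whereas in WT replicate 2 the arms were covered to 95.8% and 95.7%. At 1000 bp downstream, 76.3% of the members were under a peak in WT replicate 1, 48.9% and 52.0% in H689A/F667I, and 30.2% to 41.5% in the GOF libraries. At 1000 bp upstream these shares were 41.0%, 33.6% and 33.8%, and 20.6% to 30.5%. The middle of a gap between 2 peaks lay downstream of the start in 65.8% to 78.9% of gaps per mutant library, at a median of 393 to 581 bp. The downstream arm was the longer one in 67.9% of these members and gives gaps more room. The share of gaps thus does not show a preference for that side. A longer arm also reaches further from the start, which the covered shares of the arms do not take into account. The arms were compared after their values were known and without a test.

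**Figure D4:**
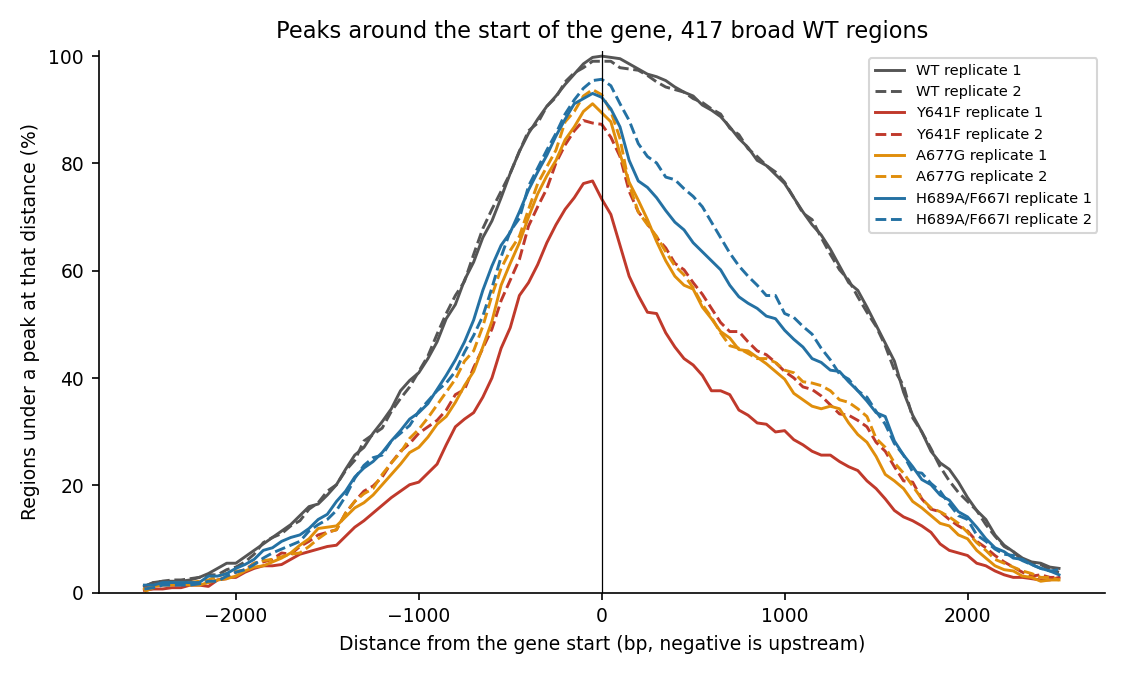
Share of 417 broad WT regions with a peak of the library at a given distance from the gene start (horizontal axis in bp, negative is upstream), with 1 line per library and replicate 2 dashed. All mutant lines peak within 100 bp of the start, between 76.7% and 95.7%, and run below the WT lines most clearly downstream, where Y641F replicate 1 reaches 30.2% and H689A/F667I replicate 2 reaches 52.0% at 1000 bp.

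The contrast between GOF and LOF lines was uneven across the members. In 174 of the 616 members (28.2%) the cover in all 4 GOF libraries was below that in both LOF libraries, against a background of 16.3% of the reproducible WT regions. A region without a LOF peak cannot show this order. Both LOF libraries lacked a peak in 14.4% of the reproducible WT regions and in no member, so the shares are not directly comparable. The mean LOF minus GOF difference was 14.3 points in members and 18.7 points in WT peaks below 500 bp. The reverse was seen in 4 members (0.649%), against a background of 0.68%. With equal peak numbers the counts were 124 (20.1%, background 9.45%) and 16 (2.60%, background 1.03%), and without Y641F replicate 1 they were 183 (29.7%, background 17.2%) and 16 (2.60%, background 2.82%). Both Y641F libraries were below both A677G libraries in 199 members (32.3%, background 24.2%) and above them in 48 (7.79%, background 3.71%).

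HELZ, DLK2 and UCKL1 had the largest LOF minus GOF differences of mean cover among members with a protein-coding start and no overlap of the groups. The region of DLK2, a membrane protein of the NOTCH pathway (chr6:43454468-43456995), was covered to 25.4% and 33.6% in Y641F, 51.6% and 52.8% in A677G, compared with 98.6% in both H689A/F667I libraries. Its widest peak measured at most 1305 bp in the GOF libraries and 2513 and 2624 bp in the LOF libraries. The HELZ region (chr17:67244825-67246928), at the promoter of an RNA helicase, held no peak in Y641F replicate 1 and was covered to 61.6% in Y641F replicate 2, 30.9% and 61.5% in A677G, against 99.2% and 96.7% in H689A/F667I. The GOF libraries thus spread widely at HELZ, whereas the LOF libraries lay close together.

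The UCKL1 region, at a gene related to uridine-cytidine kinases, was covered to 9.85% and 30.5% in Y641F, 58.6% and 54.6% in A677G, compared with 79.8% and 100% in H689A/F667I. At SERTAD2, a transcriptional co-regulator, the values were 40.9% and 43.6%, 57.7% and 63.8%, and 98.6% and 98.0%. In both regions Y641F was the lowest line, A677G stood between and the LOF line was the highest. At ERF, an ETS-family transcriptional repressor (chr19:42253391-42256135), the 4 GOF libraries covered 7.29% to 10.7% and the LOF libraries 51.6% and 62.7%, and the widest GOF peak there was 354 bp. Its GOF mean of 9.07% was the lowest of the 12 members named for this pattern.

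DVL3, a Dishevelled protein that relays WNT signals, had no peak in Y641F replicate 1, 32.2% in Y641F replicate 2, 15.5% and 13.01% in A677G, against 57.6% and 69.6% in H689A/F667I. GATA4, a transcription factor of heart and endoderm development, had 19.5% and 53.8% in Y641F, 48.9% and 54.0% in A677G, compared with 84.8% and 96.2% in H689A/F667I. GPS2, a subunit of the NCoR corepressor complex, had 14.03% and 41.6%, 45.5% and 48.8%, and 73.8% and 93.9%. At DVL3 and GATA4 only 1 of the Y641F libraries was clearly below A677G. The remaining named members of this pattern, at TTYH2, RNF145, SLC25A10 (the mitochondrial dicarboxylate carrier) and HNRNPD (an RNA-binding protein), had GOF means of 28.2% to 45.0% and LOF means of 76.6% to 95.3%. These members were ranked by this very difference, so their size is not a test of it.

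In the opposite direction, the NRN1 region, at the gene of the neurotrophic factor neuritin, was covered to 55.7% and 37.6% in Y641F, 72.8% and 81.3% in A677G, against 29.7% and 29.5% in H689A/F667I. PIK3CA, the catalytic subunit of a phosphatidylinositol kinase, had 87.7% to 98.4% in GOF and 85.0% and 75.9% in LOF libraries. At SYNCRIP, an RNA-binding protein, the ranges of 63.6% to 68.1% and 62.2% to 63.3% nearly touched. With 4 such members and a background of the same size, this share was close to that of all regions.

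**Figure D5:**
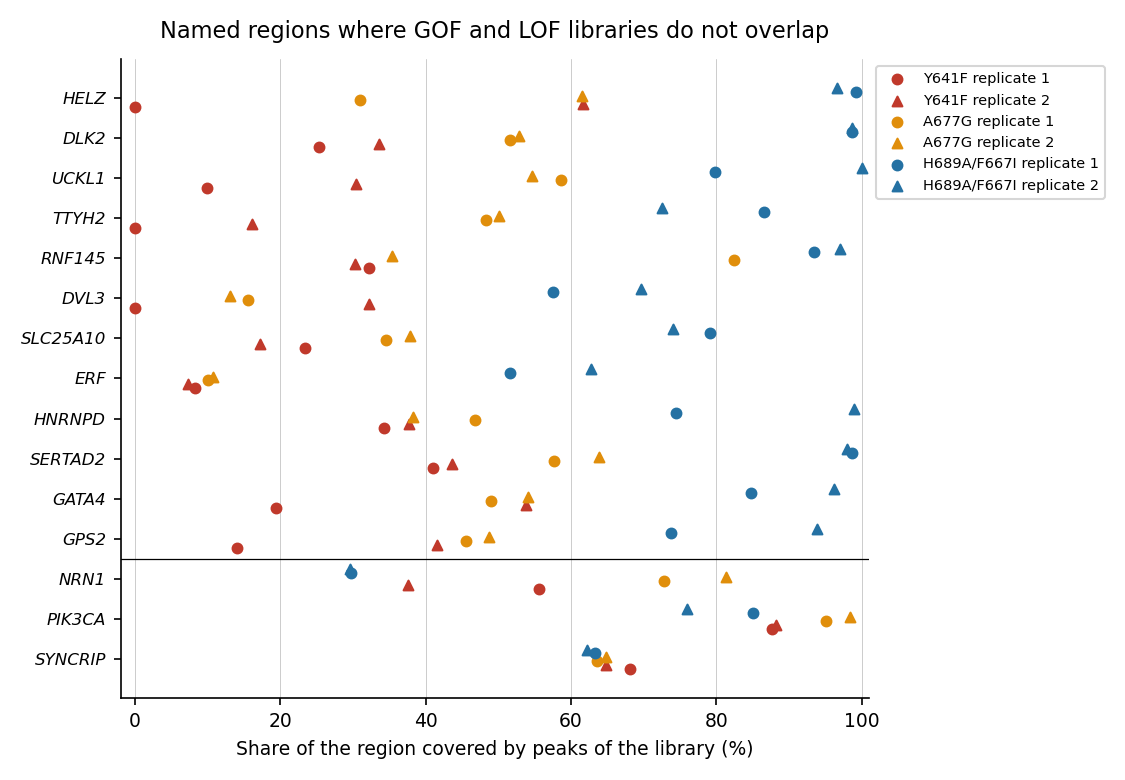
Percentage of each named region covered by peaks (horizontal axis) in the 6 mutant libraries, with circles for replicate 1 and triangles for replicate 2. The 12 regions above the line are those with the largest LOF minus GOF difference (DLK2 at 98.6% in both LOF libraries and at most 52.8% in GOF), and the 3 below it show the reverse order, from NRN1 with 29.7% and 29.5% in LOF to SYNCRIP.

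The widest region of all lay at ALCAM, a cell adhesion molecule, and was 3864 bp in WT replicate 1 and 3902 bp in WT replicate 2 (chr3:105365803-105369666). Its widest peak was 2044 and 3272 bp in Y641F, 2222 and 1797 bp in A677G, whereas H689A/F667I had 1941 and 2112 bp. The best fold at ALCAM was 3.01 and 2.80 in WT and 3.33 to 3.97 in the mutants, so the narrower mutant peaks did not have a lower fold. At HMGA2, an architectural chromatin protein, the region of 3466 bp was covered to 30.7% and 33.9% in Y641F, 34.2% and 45.8% in A677G, compared with 64.5% and 73.3% in H689A/F667I. At CDH2, which encodes N-cadherin, it was 47.6% and 74.6%, 89.9% and 84.4%, and 99.3% and 94.3%. ALCAM did not separate GOF from LOF, whereas HMGA2 and CDH2 did.

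Of the other very wide members, NR3C1 (the glucocorticoid receptor) was covered to 63.9% and 50.1% in Y641F, 53.3% and 59.0% in A677G, against 50.2% and 60.3% in H689A/F667I, with overlapping groups. QSER1, which encodes a protein that limits DNA methylation at developmental promoters, had 40.8% and 42.5%, 47.4% and 85.3%, and 73.2% in both LOF libraries. ZNF398, a zinc finger gene, had 16.2% and 33.3%, 48.7% and 46.3%, and 37.7% and 80.3%. H689A/F667I replicate 1 was thus below both A677G libraries at ZNF398, and A677G replicate 2 exceeded both LOF libraries at QSER1. The regions of ADAMTS1 (a secreted metalloprotease), DKK2 (a modulator of WNT signalling), SIX4 (a homeobox factor), ADGRL3 (an adhesion receptor), an intron of SOX6 and the lncRNA gene ENSG00000268120 completed the 12 widest and had GOF means of 18.4% to 65.1% and LOF means of 60.2% to 86.9%.

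The members with the lowest cover in the mutants were also mostly promoters. MED13L, a subunit of the Mediator kinase module, had no peak in Y641F replicate 1, 11.005% in Y641F replicate 2, 14.7% and 38.2% in A677G, compared with 19.6% and 10.7% in H689A/F667I. CEBPB, a bZIP transcription factor, had no peak and 13.2% in Y641F, 24.6% and 23.9% in A677G, against 9.35% and 35.5% in H689A/F667I. At both genes the LOF line was as low as the GOF lines. ZNRF3, a ubiquitin ligase that removes WNT receptors from the cell surface, had no peak and 25.6%, 17.97% and 24.3%, and 30.7% and 64.1%. NIBAN2, ZBTB34, TEAD2 with DKKL1, and a region of 3284 bp in an intron of the ribosomal protein gene RPSA were also among the 8 lowest, as was the ERF region, with mutant means of 25.1% to 27.6%.

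Some other members were covered over most of their length in all 6 mutant libraries. FOXN2, a forkhead factor, was covered to 97.2% to 100% in the 6 mutant libraries, GPC6, a glypican, to 96.2% to 99.4%, EPC2, a subunit of the NuA4 acetyltransferase complex, to 91.4% to 100%, and STAT6, the transcription factor of interleukin signalling, to 93.6% to 99.9%. These 4 were picked as examples after their values were seen. The mutant mean over all members ranged from 15.7% to 99.0%. The highest value belonged to an intergenic region on chromosome 16 with 36.2% GC (chr16:46398754-46401631), and the intergenic region with the lowest CpG density of all members, 0.372 per 100 bp (chr4:49709241-49711926), kept 89.97%. Neither contains a gene start. The methods describe no filter for regions of artefactual signal, and none was applied here. Whether the signal of these intergenic regions reflects open chromatin was not tested.

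Mean cover varied with position relative to genes. The groups without a gene start were small, with 14 members in exons, 24 in introns and 24 in intergenic sequence. Members with a protein-coding start had a mean cover of 63.9% in GOF and 77.7% in LOF libraries, members with at least 2 protein-coding genes 69.9% and 82.4%, members in introns 50.8% and 70.1%, and intergenic members 63.0% and 83.0%. The difference between LOF and GOF lay between 11.3 and 20.5 points in each of the groups examined by position, and at 14.7, 13.7 and 14.6 points in members of low, middle and high CpG density. Across chromosomes, the members made up from 0.351% (chromosome 20) to 2.25% (chromosome 14) of the reproducible WT regions. Mean cover of members was lower in GOF than in LOF libraries on each chromosome, by differing amounts. It was 62.4% in GOF and 72.2% in LOF libraries on chromosome 21 (4 members). The values lay furthest apart on chromosomes 19 (45.5% and 73.4%, 14 members), 20 (36.2% and 66.7%, 4 members) and 22 (41.4% and 73.2%, 5 members).

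The share of a gene group with its start in a member ranged from 0% to 25.6%, against 3.17% of all protein-coding genes, and was not tested. Of 88 homeobox and paired genes outside the HOX clusters, 14 had a start in a member (15.9%), among them PAX2, PAX6, SIX4, LHX4 and EMX2. LHX4, a factor of pituitary development, had 53.2% in Y641F replicate 1 and 87.6% to 96.1% in the others. Of these 14 members, 3 had all GOF libraries below both LOF libraries, a share between the 16.3% of all reproducible WT regions and the 28.2% of all members. HOX genes had 2 of 39 starts in members (5.13%), at HOXD8 and HOXD11. HOXD11 had 68.8% to 70.7% in the 4 GOF libraries and 98.8% and 78.0% in the LOF libraries. Of 74 forkhead, SOX, TBX and GATA genes, 7 had a start in a member (9.46%). They lay in 8 members, in 1 of which GOF lay below LOF, against 28.2% of all members and 16.3% of all reproducible WT regions.

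AP-1 and immediate early genes, which respond within minutes to growth signals, had 11 of 43 starts in members (25.6%), with GOF below LOF in 3, a share near the 28.2% of all members (background 16.3%). ID4, an inhibitor of bHLH factors, was covered to 81.7% and 59.7% in Y641F, 71.8% and 55.5% in A677G, against 93.1% and 98.5% in H689A/F667I. IER3, a stress-response gene, had 79.3% and 85.1%, 98.7% and 92.8%, and 70.6% and 89.8%, so that its groups overlapped. HES1, a target of NOTCH, had 33.1% to 56.0%. The replication-dependent histone genes had 15 of 63 starts in 7 members (23.8%). The region with H2AC20, H2AC21 and H2BC21 was covered to 78.2% to 91.6% in the mutants. Histone genes lie in dense clusters, so that 1 member holds several of these starts.

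No cytosolic ribosomal protein gene (0 of 75) and no PRC1 or PRC2 subunit gene (0 of 32) had its start in a member, although 74 and 31 of them lay in reproducible WT regions. At the share of 3.17%, lists of this size would hold few such starts. Among protein-coding genes with a start in a reproducible WT region, 605 of 12529 had one in a member. The counts of 0 were not tested against either share. Of 52 WNT pathway genes, 6 were in members (11.5%), with GOF below LOF in 3 (28.2% over all members, background 16.3%). WNT5A, a secreted ligand, was covered to 11.3% and 59.6% in Y641F, 44.2% and 65.2% in A677G, compared with 32.0% and 76.8% in H689A/F667I. The receptor gene FZD8 had 25.5% and 37.5%, 52.9% and 27.1%, and 69.4% and 86.0%.

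Of 41 cell cycle genes, 4 were in members (9.76%). CDKN2A, the INK4A/ARF tumour suppressor and a known Polycomb target, was covered to 45.9% and 85.5% in Y641F, 62.6% and 66.8% in A677G, against 98.0% and 55.6% in H689A/F667I. CCND2, a D-type cyclin, had 20.8% and 37.4%, 42.8% and 38.8%, and 51.6% and 24.6%. In neither gene did the groups separate. Of 29 kidney regulators 5 were in members (17.2%). Of these, TFAP2A had 15.3% and 30.5%, 14.5% and 39.7%, and 55.9% and 72.0%. PAX2, also a marker of HEK293T, had 62.0% and 99.5% in Y641F, 69.3% and 79.5% in A677G, compared with 98.9% and 96.7% in H689A/F667I. KDM6B, a demethylase of histone H3 lysine 27, was the single member among 15 genes of opposing histone enzymes (6.67%). It had 20.5% and 56.1%, 81.0% and 60.9%, and 85.2% and 77.0%. Of 30 neuronal and adrenal genes only NCAM1 was in a member (3.33%). Of 21 genes that the study singled out, FAT3 and RPRM were in members (9.52%, against 3.17% of all protein-coding genes).

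The same rule applied to each mutant line, a peak of 2 kb or more in both of its libraries, gave 65 regions in Y641F, 105 in A677G, and 236 in the LOF line, against 616 in WT. Among the members, 56 (9.09%) overlapped a peak of 2 kb or more in both Y641F libraries, 99 (16.1%) in A677G, and 199 (32.3%) in the LOF line. The background over the reproducible WT regions was 0.142%, 0.227% and 0.517%. Thus 86.2%, 94.3% and 84.3% of the mutant sets were broad WT regions too. Of the 9 Y641F regions outside the members, the widest lay at EGR1. At this immediate early transcription factor gene (chr5:138464150-138467906) the widest peak was 3757 and 2167 bp in Y641F, and in the other lines 1773 and 1619 bp in A677G, 1557 and 1536 bp in WT, and 1551 and 1547 bp in H689A/F667I. It was chosen after its values were seen.

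The threshold cut through a continuous distribution. The narrowest members were the PAWR region, at 2000 bp in WT replicate 1 and 2151 bp in WT replicate 2, and a region in an intron of HHAT, at 2006 and 2030 bp. Just outside were the region of CASKIN2 and TSEN54, at 1999 and 1194 bp, and that of CEP97, at 1999 and 2011 bp. In the mutants, PAWR was covered to 49.0% to 88.4% and HHAT to 47.1% to 97.1%, and the outside regions to 45.4% to 55.6% and 57.8% to 78.3%. Among all reproducible WT regions, the mean difference between LOF and GOF cover was 18.7 points for peaks below 500 bp, 12.4 at 1000 to under 1500 bp, 13.4 at 2000 to under 2500 bp and 15.9 from 2500 bp. A similar difference was therefore found at narrower WT peaks.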

How the data were processed

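ATAC-seq peaks of 8 libraries were used, grouped into 4 EZH2 lines of HEK293T cells by the sample titles. According to the submitters' processing notes and the methods of the study, the authors trimmed reads with Trim Galore 0.6.5, aligned them to GRCh38 (hg38) with BWA 0.7.17, removed duplicates with Samtools and called broad peaks in each library with MACS2 2.2.7.1. The deposited lists give each peak's position, its fold (a ratio of pileup to background), its −log10 p and its −log10 q as the authors obtained them, each a mean over the peak. Total read counts, transposase shift and mitochondrial filtering are not given in the sources used here. A base without a peak may still carry signal.

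Members were found by the width rule on chromosomes 1 to 22. The members and gene lists were chosen with earlier results of these data known. For each library the covered share, the number of peaks, the best fold and the best −log10 p per region were computed (Python 3.11.15, numpy 2.4.6, pandas 2.3.3, pysam 0.24.0), and the interval code was tested on simulated peaks. Gene starts and exons came from basic GENCODE 44 transcripts. Library values were compared with two-sided exact permutation tests (scipy 1.17.1) and adjusted by Benjamini-Hochberg over 5 tests. The number and share of wide peaks, middle minus outer parts and covered minus uncovered CpG had been planned as tests but are given without one, because WT peak widths or edges enter them. A p-value gives how often reassigned library labels or flipped signs gave a mean difference as extreme as the observed one. Its smallest possible value is set by the number of assignments. It refers to these libraries only. Named were the 12 widest members, the 12 with a protein-coding start and the largest LOF minus GOF difference without overlap, the reverse (up to 8), the 8 with the lowest mutant mean, up to 4 genes per list by width, and 2 regions on either side of the threshold, any other name being marked as chosen later. Printed sequences are the bases upstream of the gene start. The bases upstream of ADAMTS1 and DLK2 are not shown. Values of some listed genes are not reported here.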

Additional observations from a re-analysis of the deposited data

Results flagged for a closer look

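The median within-library percentile of the best fold of members was 39.4 in A677G replicate 2, far from the other GOF libraries at 35.0 to 35.3. It was picked out by its gap to the other libraries among 11 such checks, of which chance would give about 1 in 20. With equal peak numbers A677G replicate 2 stood at 15.1, A677G replicate 1 at 16.3 and Y641F replicate 2 at 16.4. Y641F replicate 1 then stood apart at 35.3.

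Chromosome X lies outside the rule. It held 19 regions of 2 kb or more in both WT libraries. Their mean cover was 43.0% and 60.5% in Y641F, 62.3% and 66.5% in A677G, compared with 78.5% and 81.1% in H689A/F667I, so that both LOF libraries lay above all GOF libraries, as on chromosomes 1 to 22.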

How the results depend on the processing

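Over the alternatives tried (a stricter −log10 q, equal peak numbers, other width thresholds, other ways of setting the members, joined peaks, the replicate number as a block, and leaving out each library), no result changed direction. Of the tested differences, 72 values kept their side of 0.05 and 7 lost it. Only members minus the other regions could reach 0.05, so the other tested differences kept their side by design. Requiring an overlap of at least 50% of both WT peaks left the same 616 members. Of the values and counts without a test, 46 moved by less than the replicate SD (counts by less than 1.5 times) and 23 by more. The 7 losses all concern members minus the other regions, where fewer assignments leave no p below 0.05: 20.9 to 22.6 points with a mutant library left out, and 21.6 points (exact permutation p = 0.500) with the replicate number as a block.

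With peaks of −log10 q of at least 5, the share of wide peaks differed by -1.44 points, middle minus outer parts was 6.20 points, covered minus uncovered CpG 0.475 per 100 bp, members minus the other regions 13.7 points, peaks per covered member 0.0157 and the fold percentile 1.54. Members with cover lower in all GOF libraries than in LOF fell to 102 (16.6%, background 6.84%) and those with higher cover to 2 (0.325%, background 0.169%). With equal peak numbers the share differed by -1.46 points, CpG by 1.23, cover by -7.43 points between GOF and LOF and -3.15 between Y641F and A677G, and the fold percentile by 10.05. In this setting the fold percentile was 35.3 in Y641F replicate 1 and 15.1 to 16.4 in the other GOF libraries. Members with higher cover in GOF were 16 there and 16 without Y641F replicate 1, counts chosen after seeing the data. At a threshold of 1500 bp the share differed by -2.28 points, middle minus outer parts was 16.5 points, CpG 1.94, peaks per covered member 0.0526 and the fold percentile 1.92. At 3000 bp the log2 number differed by -3.72 and the share by -0.0511 points, with 1.51 points for middle minus outer parts, 1.10 for CpG and 6.27 for the fold percentile. In the interval shared by both WT peaks, middle minus outer parts was 6.995 points. The causes of these shifts were not tested.

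With a single library left out, the difference of log2 number ranged from -2.11 to -1.57, that of the share from -0.868 to -0.623 points, members minus the other regions from 20.9 to 25.6 points, middle minus outer parts from 9.59 to 11.8 points and CpG from 1.48 to 2.01. Leaving out Y641F replicate 1 or 2 moved the Y641F minus A677G difference in cover to -0.714 or -15.6 points, and leaving out A677G replicate 2 moved the fold percentile to 2.12. Members set by 1 WT library alone gave 0.0764 or 0.0649 more peaks per covered member in GOF than in LOF.

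The replicate block left the other values at -1.88, -0.742, 9.87 and 1.54. The replicate numbers share only a name: the differences between replicates correlated between lines at r = 0.00725, 0.0348 and -0.0398 across the 616 members. The number of reads is unknown, so an uncovered base may reflect depth or lack of signal.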
